A study of Mus musculus with 2 samples.

Results

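The insulin-like growth factor (IGF) genes described here are 10 listed genes compared between Gprc5a knockout and wild-type mouse tracheal epithelial cells, of which 9 had a probe set of their own among the 14860 genes named on the array. They are the genes of 6 IGF binding proteins (Igfbp2 to Igfbp7), of 2 receptors (Igf1r and Insr), and of the mRNA-binding proteins Igf2bp2 and Igf2bp3. Each gene was taken from probe sets annotated with exactly 1 gene symbol, and all 9 measured genes had a single such probe set. Igf2bp2 was not analysed here. The genes were selected on their knockout and wild-type values in these same 2 samples, which are therefore given as a description, with no test.

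The knockout sample came from Gprc5a-/- mice and the wild-type sample from Gprc5a+/+ mice, both 3 weeks old and on a mixed C57 BL/6 and 129sv background. Gprc5a encodes an orphan G protein-coupled receptor. Both cultures received no treatment and grew exponentially in keratinocyte serum-free medium (K-SFM) to which were added epidermal growth factor (EGF) at 5 ng/ml and, at 50 µg/ml, bovine pituitary extract, an undefined supplement that can itself carry growth factors. Total RNA of each was hybridised to 1 Affymetrix whole-transcript array, so no value has an error, and precision is limited by the number of arrays. The number of animals or cultures behind each sample is not stated in the labels. In bulk samples like these, fewer cells of a type and less RNA per cell cannot be told apart.

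IGF1 and IGF2 are secreted growth factors that act mainly through the receptor tyrosine kinase IGF1R, a close relative of the insulin receptor, and from there through IRS adaptors, PI3K and AKT. The IGF binding proteins hold most extracellular IGF, and proteases that cut them release it. IGFBP7 differs from the others in binding IGFs only weakly, and has been studied as a secreted tumour suppressor. The IGF2BP proteins are unrelated to the IGFBPs: they bind mRNAs, IGF2 mRNA among them, inside the cell and are best known from embryonic tissue and tumours.

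Levels below are deposited log2 values (RMA), a difference has the wild-type value subtracted from the knockout value, and a fold is 2 raised to its size. The 799 olfactory and vomeronasal receptor genes served as a background set, and 95% of their values lay below 5.05. A gene was counted at 2-fold when its higher value also exceeded 6.76, the median of all annotated probe sets, here called the level filter. Gprc5a itself was at 4.05 in the knockout sample and 9.49 in the wild-type sample, a difference of -5.44, and the knockout value lay below background. Over all genes the median difference was -0.03, and the central 95% of differences ran from -0.93 to 1.18.

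The promoters of the 2 lower IGF genes, Igfbp7 and Igf2bp3, are shown with that of Igfbp3, a binding protein gene whose values in the 2 samples nearly coincided. Each sequence is from RefSeq (GRCm38.p6), covers 250 bases before to 50 after the annotated start on the gene's own strand, and has its CpG dinucleotides in capitals. The Igfbp7 promoter lies at chr5:77407996-77408295 (minus strand), that of Igf2bp3 at chr6:49214905-49215204 (minus strand) and that of Igfbp3 at chr11:7213874-7214173 (minus strand).
Igfbp7: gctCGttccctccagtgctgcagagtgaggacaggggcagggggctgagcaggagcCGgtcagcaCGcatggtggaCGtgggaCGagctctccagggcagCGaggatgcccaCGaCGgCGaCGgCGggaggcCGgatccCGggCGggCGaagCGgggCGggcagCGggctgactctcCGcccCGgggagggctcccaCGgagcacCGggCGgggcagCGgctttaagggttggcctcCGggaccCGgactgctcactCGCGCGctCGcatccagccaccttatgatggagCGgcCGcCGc
Igf2bp3: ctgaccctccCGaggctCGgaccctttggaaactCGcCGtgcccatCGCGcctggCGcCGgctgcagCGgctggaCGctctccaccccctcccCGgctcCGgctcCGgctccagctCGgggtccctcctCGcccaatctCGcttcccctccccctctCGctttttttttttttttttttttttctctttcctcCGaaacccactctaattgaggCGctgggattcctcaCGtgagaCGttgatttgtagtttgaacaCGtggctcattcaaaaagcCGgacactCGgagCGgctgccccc
Igfbp3: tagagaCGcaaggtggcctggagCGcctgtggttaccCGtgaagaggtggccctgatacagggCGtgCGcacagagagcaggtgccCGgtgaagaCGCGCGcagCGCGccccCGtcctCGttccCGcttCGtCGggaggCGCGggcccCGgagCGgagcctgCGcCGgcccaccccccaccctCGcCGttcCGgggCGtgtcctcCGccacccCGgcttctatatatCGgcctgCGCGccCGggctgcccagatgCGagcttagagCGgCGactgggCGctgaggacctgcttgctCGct

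All 3 were rich in CpG, with 33 in Igfbp7, 25 in Igf2bp3 and 37 in Igfbp3, against a median of 7 (quartiles 3 and 20) over the 32851 RefSeq promoters of this length. The GC box GGGCGG, searched on both strands and always containing a CpG, occurred 4 times in the Igfbp7 promoter and in neither of the others. Of all promoters, 35.7% held at least 1. Among the other listed genes, an Igfbp2 promoter held it 3 times and those of Igf1r and Igf2bp2 2 times each. The letters CCAAT, on either strand, occurred once in Igf2bp3 and are found in 37.4% of promoters. None of the 3 windows held TATAAA, the AP-1 letters TGANTCA or the FOXO letters GTAAACA, which 13.6%, 7.81% and 3.65% of all promoters hold. Promoters were found for 9 of the 10 listed genes, the exception being Insr. Their CpG counts ranged from 8 in Igfbp6 to 48 in Igf1r, and the genes that differed most in level were not at either end of that range.

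Of the 9 measured genes, 2 had a level lower by 2-fold or more in the knockout sample, and none was higher by as much. Of the 9, 5 passed the level filter. Without the filter, 2.11% of all genes were lower by 2-fold or more and 3.34% higher. Among all genes that passed it, 2.97% were lower by as much and 4.62% higher. Since the 9 genes were listed from this same contrast, nothing is read from the count. The median difference of the 9 genes was -0.10.

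Igfbp7 (probe set 6939358, Entrez Gene 29817, chromosome 5) was at 5.28 in the knockout sample and at 11.08 in the wild-type sample. The knockout value was just above the background percentile of 5.05, while the wild-type value was far above it. The difference of -5.79, or 55.5-fold, was the third lowest of all 14860 genes, and the gene passed the level filter by its wild-type value only.

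The other binding protein genes did not share that difference. Igfbp3, which encodes the main carrier of IGFs in serum and is a known p53 target in human cells, was at 10.64 in the knockout sample and 10.68 in the wild-type sample, a difference of -0.04. Igfbp2, which encodes a binding protein with an integrin-binding sequence, was at 5.35 in the knockout sample and 6.30 in the wild-type sample. Its difference of -0.95 (1.93-fold) stood just short of 2-fold, and both values were below the level filter and above background. Among the 1416 other genes whose mean level lay within 0.5 of that of Igfbp2, the central 95% of differences ran from -1.38 to 1.90.

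The remaining binding protein genes were dim in both samples. Igfbp4, which encodes an inhibitor of IGF action that is cleaved by pappalysin, was at 6.51 in the knockout sample and 6.61 in the wild-type sample, just under the level filter. Igfbp5, whose product binds matrix, was at 3.92 in the knockout sample and 4.17 in the wild-type sample. Igfbp6, whose product prefers IGF2, was at 3.87 in the knockout sample and 3.97 in the wild-type sample. Values of Igfbp5 and Igfbp6 were below background in both samples, so no fold is given for them. All 6 binding protein genes, the 2 below background included, had a lower value in the knockout sample, with differences from -5.79 to -0.04. Of all genes, 46% had a higher value there (6835 of 14860), and 8023 had a lower one. The 6 genes were listed from this same contrast, so nothing is read from their shared direction. The differences of Igfbp3 (-0.04), Igfbp4 (-0.10) and Igfbp6 (-0.10) were smaller in size than 0.17, the largest gap between the sorted values of the 2 samples.

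**Figure D1:**
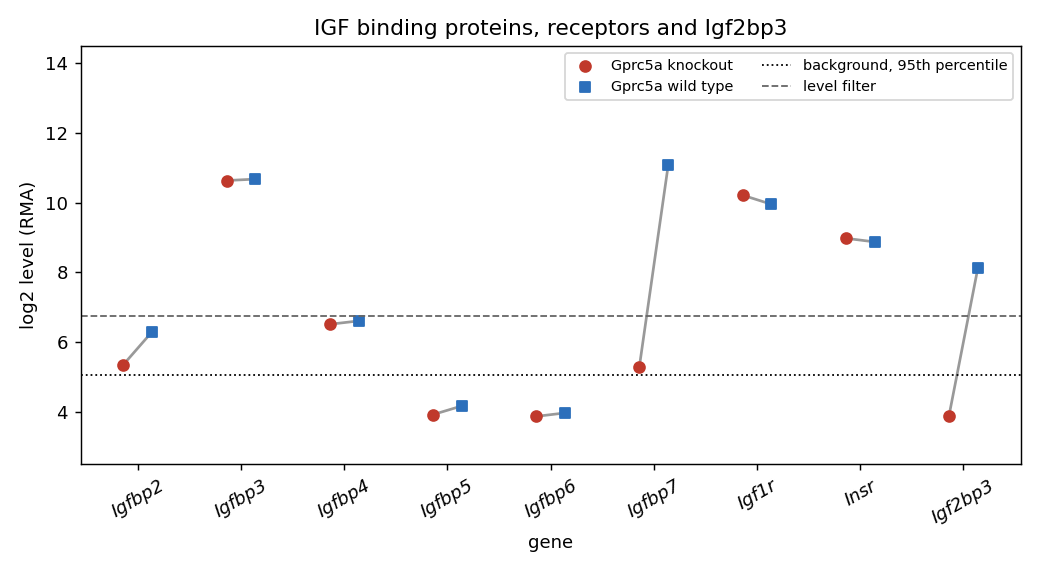
Log2 level (RMA) of the 9 measured IGF genes in the knockout sample (red circles, left) and the wild-type sample (blue squares, right), with 1 array each and no error bars. The dotted line is the 95th percentile of the background receptor genes and the dashed line the level filter. Igfbp7 and Igf2bp3 are well above both lines in the wild type and near or below the dotted line in the knockout.

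The receptor genes were well above the level filter in both samples and differed little. Igf1r, the receptor through which IGF1 and IGF2 signal, was at 10.22 in the knockout sample and 9.95 in the wild-type sample, a difference of 0.26 (1.20-fold). Insr, the insulin receptor gene, was at 8.98 in the knockout sample and 8.88 in the wild-type sample, a difference of 0.10. Among the 1399 other genes with a mean level within 0.5 of that of Igf1r, the central 95% of differences ran from -0.78 to 0.87, a range that holds its value.

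Igf2bp3 (probe set 6953443, Entrez Gene 140488, chromosome 6), which encodes an mRNA-binding protein of embryonic tissue and many tumours, was at 3.87 in the knockout sample and 8.11 in the wild-type sample. The knockout value lay below background and the wild-type value above the level filter, which the gene passed by that value only. The difference of -4.24 (18.95-fold) ranked 14 from the lowest of all genes, and it was -3.06 (8.33-fold) with the knockout value raised to the background percentile. Its paralog Igf2bp1 was below background in both samples, at 4.67 in the knockout sample and 4.61 in the wild-type sample.

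**Figure D2:**
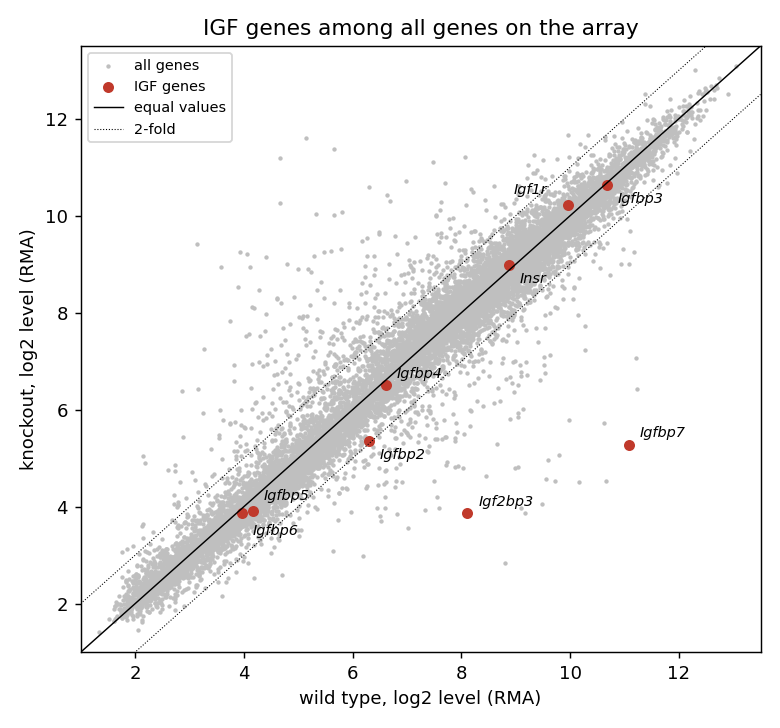
Log2 level (RMA) in the knockout sample (vertical axis) against the wild-type sample (horizontal axis) for all 14860 genes (grey) and the 9 measured IGF genes (red). The solid line marks equal values and the dotted lines a 2-fold difference. Igfbp7 and Igf2bp3 lie far below the lower dotted line, Igfbp2 lies just above it, and the other 6 lie near the solid line.

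For the 3 members with the largest absolute difference above the level filter, the genes with the nearest pair of values were sought. The distance was taken in the plane of the 2 log2 values, over these 2 samples only. Predicted and provisionally named genes, small RNA genes and olfactory, vomeronasal and taste receptor genes were left out. The nearest to Igfbp7 were Pdpn, Hspb8 and Ppbp, at distances of 0.64 to 1.15 and with differences of -4.88, -6.13 and -4.81. The knockout value of Hspb8 was below background, and raised to the background percentile it gave -5.60. For Igf2bp3 they were Slc14a1, Mboat2 and Eya4, at distances of 0.54 to 0.78 and with differences of -3.61, -3.35 and -3.40. The knockout values of all 3 were below background, and raised to the background percentile they gave -2.53, -2.49 and -2.28. For Igf1r they were Chmp2b, Xbp1 and Spred2, at distances of at most 0.022.

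Genes beside Igfbp7 on chromosome 5 were within 2-fold. Among the 3 array genes on either side in chromosome order, differences ran from -0.45 for Noa1 to 0.63 for Adgrl3, and the adjacent Polr2b, a subunit gene of RNA polymerase II, was at 9.73 in the knockout sample and 9.83 in the wild-type sample. Beside Igf2bp3 the range was wider, from -1.86 to 0.29. Its adjacent array gene Gpnmb, which encodes a transmembrane glycoprotein, was at 5.33 in the knockout sample and 7.19 in the wild-type sample.

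Adjoining binding protein genes are set side by side here, though of these only Igfbp3 was above the level filter. Igfbp2 and Igfbp5 are neighbours on chromosome 1, with 0 protein-coding genes between them in RefSeq, and their differences were -0.95 for Igfbp2 and, from values below background, -0.25 for Igfbp5. Igfbp1, which encodes a binding protein regulated by insulin, adjoins Igfbp3 on chromosome 11. Igfbp1 was at 5.42 in the knockout sample and 5.73 in the wild-type sample, a difference of -0.31 beside -0.04 for Igfbp3. Igfbp6 on chromosome 15 lay 3 places from the simple-epithelium keratin gene Krt18, which was at 11.61 in the knockout sample and 5.15 in the wild-type sample while Igfbp6 was below background in both.

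**Figure D3:**
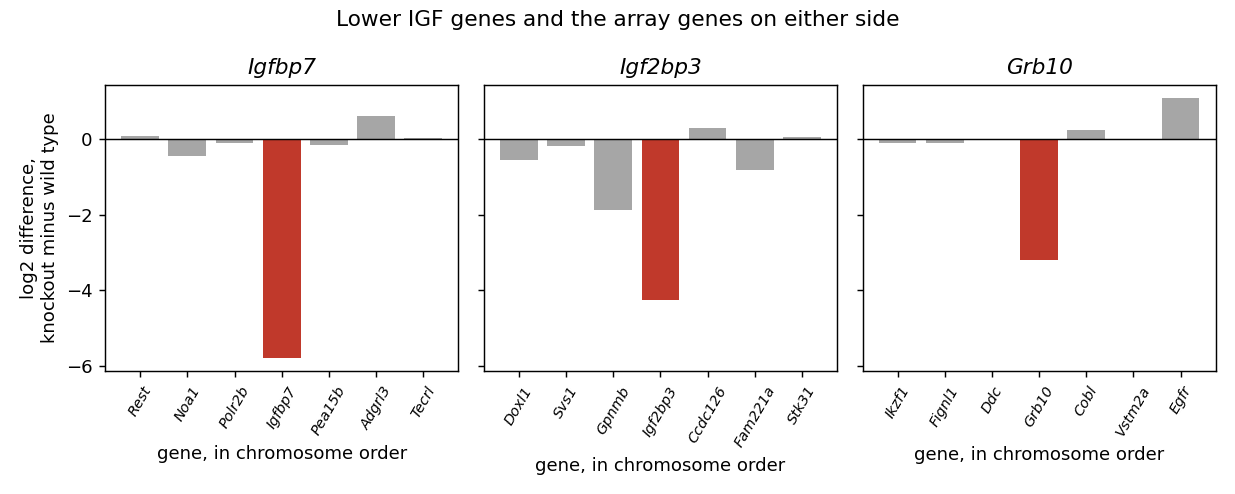
Log2 difference (knockout minus wild type) of Igfbp7, Igf2bp3 and Grb10 (red bars) and of the 3 array genes on either side of each in chromosome order (grey bars). The grey bars run from -0.45 to 0.63 around Igfbp7, from -1.86 to 0.29 around Igf2bp3 and from -0.09 to 1.09 around Grb10.

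Of 104 other genes in 10 lists covering the rest of the pathway, 90 were measured. Without the level filter, 6 of the 90 (6.67%) were higher by 2-fold or more in the knockout sample, against 3.34% of all genes. Lower by as much were 2 (2.22%), against 2.11% of all genes. The share of lower genes was close to that of all genes. All 8 were also above the level filter. The median difference of the 90 genes was 0.00, and 45 had a higher and 45 a lower value in the knockout sample. The lists were chosen with earlier results of these data known, so nothing is read from their counts, pooled or singly.

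The growth factor genes were dim in both samples. Igf2 was at 5.49 in the knockout sample and 5.81 in the wild-type sample, and Igf1 at 5.39 in the knockout sample and 5.29 in the wild-type sample. Ins2, an insulin gene, was below background in both, and none of the 3 measured ligand genes was above the level filter. Igf2r, the receptor that takes IGF2 to the lysosome, was at 10.11 in the knockout sample and 9.80 in the wild-type sample.

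Among receptor adaptors and inhibitors, 1 of 14 measured genes (7.14%) was lower by 2-fold or more, against 2.11% of all genes. None was higher by as much. The lower gene was Grb10, an imprinted gene whose product binds the activated insulin and IGF1 receptors and inhibits their signalling. It was at 5.85 in the knockout sample and 9.04 in the wild-type sample, a difference of -3.19 (9.10-fold) that ranked 27 from the lowest of all genes. Grb10 passed the level filter by its wild-type value only, and the 3 array genes on either side differed by -0.09 to 1.09, the upper end being Egfr. The other 13 differed by less than 1.5-fold. Socs1, a suppressor of cytokine signalling, differed by -0.35, its relative Socs2 by 0.28, and Cav1, which encodes caveolin-1, by 0.33.

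Of the imprinted growth genes of the IGF axis, Grb10 alone (14.3%) was past 2-fold, against 2.11% of all genes lower by as much. Of 7 measured genes, 5 had a lower value in the knockout sample, as did 8023 of all 14860 genes. The median of the 7 was -0.26, and Igf2, H19, Cdkn1c and Dlk1 were below the level filter in both samples. H19, a noncoding RNA gene next to Igf2, was at 4.97 in the knockout sample and 5.64 in the wild-type sample, and Plagl1, a zinc finger gene, at 9.62 in the knockout sample and 9.54 in the wild-type sample.

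In the PI3K, AKT and mTOR list, 2 of 18 measured genes (11.1%) were higher by 2-fold or more, against 3.34% of all genes. None was lower by as much. Deptor, which encodes an inhibitor of mTOR, was at 7.94 in the knockout sample and 6.26 in the wild-type sample, a difference of 1.68 (3.20-fold), and passed the level filter by its knockout value only. Pik3r1, the gene of the PI3K regulatory subunit p85 alpha, was at 10.82 in the knockout sample and 9.67 in the wild-type sample, a difference of 1.15 (2.22-fold). The regulatory subunit gene Pik3r3 ran the other way, at 6.94 in the knockout sample and 7.91 in the wild-type sample. The catalytic subunit gene Pik3ca differed by 0.89 and Akt1 by -0.15.

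Of 19 genes of FOXO factors and their targets, 3 (15.8%) were higher by 2-fold or more in the knockout sample, against 3.34% of all genes. None was lower by as much. FOXO factors are held out of the nucleus by AKT when insulin or IGF signalling is active. Foxo1 was at 10.12 in the knockout sample and 8.45 in the wild-type sample, a difference of 1.67 (3.17-fold). Foxo3 was at 9.55 in the knockout sample and 8.52 in the wild-type sample, a difference of 1.03 (2.04-fold) that was just under 1 when the columns were quantile-normalized to each other. Foxo4 differed by -0.01 and Foxo6 by -0.26.

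Among the FOXO target genes, Fbxo32 alone was past 2-fold. Fbxo32, a ubiquitin ligase gene known from muscle atrophy, was at 7.37 in the knockout sample and 6.19 in the wild-type sample, a difference of 1.19, and passed the level filter by its knockout value only. Sesn1, which p53 also induces, differed by 0.57. The median difference of the whole list of 19, the FOXO factor genes included, was -0.01, with 9 genes higher and 10 lower. Igf1r and Insr, themselves known as FOXO targets in other cells, differed by 0.26 and 0.10.

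**Figure D4:**
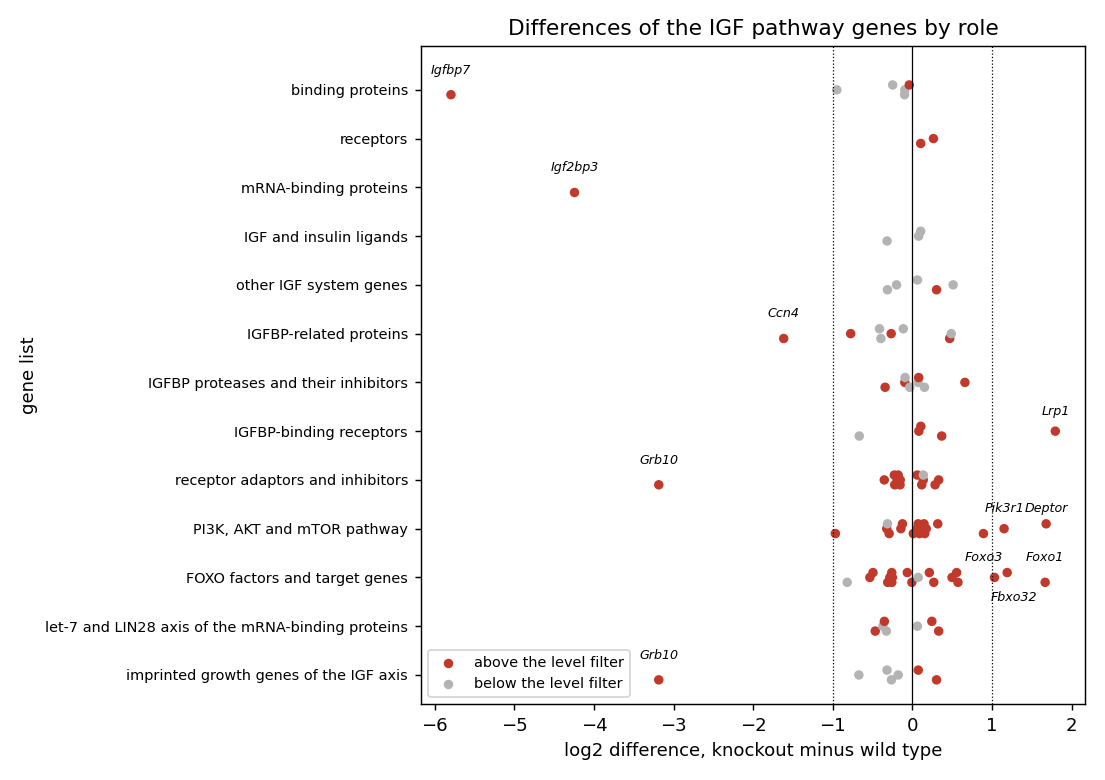
Log2 difference (knockout minus wild type) of each measured IGF pathway gene, by list, with genes above the level filter in red and others in grey. The dotted lines mark 2-fold and the solid line no difference. Igfbp7, Igf2bp3, Grb10 (which stands in 2 lists) and Ccn4 lie left of the dotted lines, and Lrp1, Deptor, Pik3r1, Foxo1, Foxo3 and Fbxo32 right of them.

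Proteins that share the amino-terminal fold of the IGFBPs were represented by 8 genes. Of these, 1 (12.5%) was at least 2-fold lower, against 2.11% of all genes. Ccn4, a WNT-induced matrix protein gene, was at 5.31 in the knockout sample and 6.93 in the wild-type sample, a difference of -1.62 (3.07-fold), and passed the level filter by its wild-type value only. Its relatives Ccn2, known as connective tissue growth factor, and Ccn1 differed by -0.78 and 0.47, and Ccn5 by -0.27.

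Of 10 listed genes of proteases that cut IGFBPs and of their inhibitors, 8 were measured, and none differed by 2-fold or more. Of all genes, 3.34% were higher and 2.11% lower by as much, so nothing is read from this absence in 8 genes. The pappalysin genes Pappa and Pappa2 were not measured. Of the 8, 4 were above the level filter, and 2, Stc1 and Plg, were below background in both samples. Adam12, a protease of IGFBP3 and IGFBP5, was at 9.55 in the knockout sample and 8.89 in the wild-type sample, a difference of 0.66. Htra1, a serine protease gene, was at 11.62 in the knockout sample and 11.54 in the wild-type sample. St14, the gene of matriptase, which cuts IGFBP7, differed by -0.10 and Adamts1 by -0.34.

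Receptors that bind IGFBPs were represented by 5 genes. Lrp1, an endocytic receptor that binds IGFBP3, was at 8.90 in the knockout sample and 7.11 in the wild-type sample, a difference of 1.79 (3.47-fold), and was above the level filter in both. Tmem219, described in human cells as an IGFBP3 receptor, differed by 0.10, and Lrp6 and Fzd8, WNT receptor genes whose products bind IGFBP4, by 0.08 and 0.37. Cd93, an endothelial receptor gene whose product binds IGFBP7, was below background in both samples.

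Genes linked to Igf2bp3 through the microRNA let-7, which represses several of them, showed no 2-fold difference. Of all genes, 3.34% were higher and 2.11% lower by 2-fold or more, so nothing is read from this absence in 7 genes. Of the 7, 4 were above the level filter. Of 7 measured genes, Hmga2, a chromatin protein gene, was at 10.30 in the knockout sample and 9.98 in the wild-type sample. Plagl2 differed by -0.47, Arid3a by -0.35 and Dis3l2, which encodes a nuclease that degrades let-7 precursors, by 0.24. Lin28a, which encodes a blocker of let-7 maturation, was at 5.10 in the knockout sample and 5.43 in the wild-type sample.

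Cell type markers were set beside these values because IGF binding proteins are also made by stromal and vascular cells. Of 12 airway basal markers, 10 were above the level filter, and the summed linear level of the 12 was 31994 in the knockout sample and 35193 in the wild-type sample. Dsg3 alone was past 2-fold, at 10.59 in the knockout sample and 11.62 in the wild-type sample, a difference of -1.03 (2.04-fold). None of 8 endothelial markers was above the filter, and 6, Pecam1 and Cdh5 among them, were at or below background in both samples. Their summed level was 195 in the knockout sample and 220.2 in the wild-type sample. Of 11 fibroblast markers, Postn alone was above the filter, at 8.46 in the knockout sample and 4.28 in the wild-type sample. The 11 genes summed to 647 in the knockout sample and 341 in the wild-type sample, and the 10 without Postn to 294 in the knockout sample and 322 in the wild-type sample. The collagen genes Col1a1, Col1a2 and Col3a1 were below the filter but above background in both samples, while 6 of the 11, Dcn, Lum and Pdgfra among them, were at or below background in both.

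Of 8 smooth muscle and pericyte markers, Acta2 alone was above the filter, at 7.93 in the knockout sample and 5.16 in the wild-type sample, and the list summed to 427 in the knockout sample and 244 in the wild-type sample. The other 7, of which 5 were at or below background in both, summed to 183 in the knockout sample and 209 in the wild-type sample. Club and secretory markers summed to 1003 in the knockout sample and 172 in the wild-type sample, with Cyp2f2 and Ltf alone above the filter. The other 5, all at or below background in both, summed to 52.2 in the knockout sample and 56.8 in the wild-type sample. Ciliated cell markers summed to 654 in the knockout sample and 214 in the wild-type sample, with Foxj1 alone above the filter. The other 5, of which 4 were at or below background in both, summed to 154 in the knockout sample and 139.6 in the wild-type sample. The secretoglobin gene Scgb1a1, a club cell marker, was below background in both. The 6 measured immune markers were all below the filter, and 4 of them were at or below background in both samples. The 6 summed to 200.5 in the knockout sample and 210.1 in the wild-type sample. The part of Dsg3, Postn, Acta2, Cyp2f2, Ltf and Foxj1 in the IGF gene values was not tested.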

How the data were processed

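The authors deposited log2 values per probe set for 2 Affymetrix arrays, made from 250 ng of total RNA each. Per the submitters' processing notes, RMA and Affymetrix Expression Console were used, with no version, filter or genome build stated. RMA as commonly run equalises the arrays' overall distributions and leaves unexpressed genes at a low positive value, so global shifts are hidden and large ratios understated. The sorted columns differed by at most 0.17.

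Of 23332 probe sets, 14996 carried 1 gene symbol, 1019 several and 7317 none. They stood for 14860 genes, of which 14805 matched RefSeq (GRCm38.p6) by Entrez ID. For several probe sets the one with the highest mean was used. Python 3.11.15, numpy 2.4.6 and pandas 2.3.3 computed differences, counts and medians. The calling was tested on simulated data with 4-fold differences planted in genes well above the level filter. The noise there was an assumed setting, so that run gives no error rate for 2-fold differences or dim genes. With 1 sample per group no test was possible. The members and gene lists were chosen with earlier results of these data known. Named were all members, in each list up to 4 genes above the level filter with the largest differences (or the 2 with the highest mean level), all those past 2-fold, Gprc5a, and the 3 nearest genes of 3 members. Genes named beyond this, such as chromosomal neighbours, were chosen after their values were seen. Alternatives changed the treatment of low values, centring, normalization, probe set, level filter and fold threshold.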

Additional observations from a re-analysis of the deposited data

How the results depend on the processing

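The 2 lower IGF genes, Igfbp7 and Igf2bp3, were counted under every alternative but 1. With both values required above the level filter the count was 0, and that of the 2 lower pathway genes was also 0, since all 4 passed by their wild-type values only, and 4 of the 6 higher pathway genes were counted. At 1.5-fold, 8 pathway genes were higher and 4 lower, and at 4-fold 0 were higher and 1 lower. Quantile-normalizing the columns to each other took Foxo3 just below 2-fold and Pik3r3 past it, to -1.06. Raising low values to the background percentile moved Igf2bp3 to -3.06 and Gprc5a to -4.43. No called difference changed sign, and the median of the IGF genes ran from -0.16 to -0.04 over the alternatives. No paired analysis was possible because each group has 1 sample, and for the same reason no replicate could be left out.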
